A study of Homo sapiens with 16 samples.

Results

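The genes described here are the replication-dependent core histone genes and the linker histone genes of the H1 family. The rule that picks them goes by name, the symbols H1-1 to H1-6 and all symbols made of H2AC, H2BC, H3C or H4C and a number, and uses no measured value. Of 28207 human genes in the files, 66 matched: 6 H1, 16 H2A, 17 H2B, 13 H3 and 14 H4 genes. They lie on chromosome 6 (55 genes) and chromosome 1 (11 genes).

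The cells were U2OS, an established line from a human osteosarcoma, and their total RNA gave 16 libraries in 8 groups of 2 replicates. A group is known by its number (zdna1 to zdna4) with its arm (CL or CC), so the groups are zdna1 CL and zdna1 CC, zdna2 CL and zdna2 CC, zdna3 CL and zdna3 CC, and zdna4 CL and zdna4 CC. The labels give no genotype, agent, dose or time for any group, do not spell out CL or CC, and do not say whether the cells of a number are a single clone, so neither arm is called a control. The series title names the transcription factor MYC, the histone chaperone FACT and the left-handed DNA form Z-DNA, and the reference of each number carries 1 extra sequence of its own.

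Replication-dependent histone genes supply the proteins that wrap newly made DNA and are transcribed mainly in S phase. H2A pairs with H2B and H3 with H4 in the nucleosome core, and H1 binds where DNA enters and leaves it. Their messages usually end in a conserved stem-loop bound by SLBP in place of a poly(A) tail, although some of the genes can also give polyadenylated transcripts. NPAT, an activator driven by cyclin E and CDK2, gathers with the genes in histone locus bodies.

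The stem-loops are shown because they are an RNA element found in many of these genes. The conserved 16-base histone stem-loop was searched for by its consensus, on the sense strand, in the GENCODE v29 transcripts of 62 members. It was found in 26 members, 14 of them with reads and 12 near 0, against 67 of 58676 genes of all kinds (0.114%). None of the H1 genes had a match, nor had core histone genes such as H2BC12 and H2AC12. The search used a single consensus in annotated transcripts only, so a gene without a match may still carry the element. In the shortest transcript with a match, the match ended from 1 base (H2BC6) to 1761 bases (H2AC11) before the transcript end. Capitals mark the 2 arms of the stem, with T written for U, each line naming 1 member that carries that form, and a further form found in H3C6 alone is not shown.
H2BC21: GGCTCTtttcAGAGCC
H2BC4: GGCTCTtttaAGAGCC
H2AC11: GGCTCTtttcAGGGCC
H4C5: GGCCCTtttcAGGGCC
H4C9: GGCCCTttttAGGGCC
The form of H2BC21 was present in 13 members of the H2A, H2B and H3 classes, that of H2BC4 in 4, that of H4C5 in 4 and that of H4C9 in 3. The stem opening with GGCCCT was found in H4 genes only (H4C2, H4C5, H4C8, H4C9, H4C11, H4C14 and H4C15).

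Promoters are shown for 3 H2B genes whose levels differed among the numbers (H2BC12, H2BC11 and H2BC21) and for H2BC8, which had 4 reads over all libraries. Each line gives the 120 bases before the annotated start, from RefSeq on GRCh38.p14, with the octamer in capitals. The octamer ATTTGCAT is bound by the POU factor OCT1 in H2B promoters.
H2BC12: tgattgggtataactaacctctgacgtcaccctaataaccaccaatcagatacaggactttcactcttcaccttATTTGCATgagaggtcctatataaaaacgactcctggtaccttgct
H2BC11: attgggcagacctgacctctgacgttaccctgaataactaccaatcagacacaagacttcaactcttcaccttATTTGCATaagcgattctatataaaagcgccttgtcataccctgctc
H2BC21: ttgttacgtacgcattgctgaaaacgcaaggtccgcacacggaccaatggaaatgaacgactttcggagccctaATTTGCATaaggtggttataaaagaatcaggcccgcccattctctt
H2BC8: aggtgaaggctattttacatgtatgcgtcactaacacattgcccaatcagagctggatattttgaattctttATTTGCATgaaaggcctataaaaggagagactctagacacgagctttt
All 4 sequences are from minus-strand genes, at chr6:27146859-27146978, chr6:27132796-27132915, chr1:149886683-149886802 and chr6:26216689-26216808 of GRCh38.p14. Of 61 members with a RefSeq promoter, 26 held the octamer in the 250 bases before the start on either strand, against 1.63% of 35116 promoters of all genes. By class this was 14 of 17 H2B, 11 of 15 H2A, 1 of 11 H3 and 0 of 12 H4 and 0 of 6 H1 promoters. The letters TATAAA were in 41 of 61 members and in 10.7% of all promoters, and CCAAT was in 52 of 61 and in 32.0%, on either strand; H4 was the class with the fewest CCAAT matches (3 of 12). Among H2B genes the octamer was in 6 of 9 promoters of genes with reads and in 8 of 8 promoters of genes near 0.

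The libraries held from 39335 to 310187 reads of human genes, so 1 read was worth 3.22 to 25.4 CPM of library totals. CPM is the read count of a gene scaled to the human-gene reads of its library, after TMM scaling between libraries unless said otherwise. Reads on the extra sequence ran from 514 to 394987 per library and stayed out of these totals. The libraries of zdna4 CC were the shallowest (39335 and 40886 reads) and held the most reads of olfactory receptor genes, at 1449 and 1492 CPM of library totals, against 55.3 to 396 CPM in the other libraries. At the olfactory density per kilobase of zdna4 CC, a histone gene would receive 1.28 to 7.96 CPM, depending on its length. The bone markers SPARC (1722 reads over all libraries) and COL1A1 (1821) were abundant, RUNX2 had 55, and ALPL (15) and COL1A2 (10) were close to the blood, epithelial and liver markers PTPRC (7), EPCAM (14), CDH1 (3) and ALB (3).

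The histone genes fell into genes with reads and genes near 0, with nothing between. Over the 2009133 human-gene reads of all 16 libraries, 32 members had at least 41 reads each and 34 had at most 10, of which 22 had 0. A count of 0 over all libraries allows a level of up to 1.49 CPM, for counting error only. Of the 15647 histone reads, H1-4 had 2190, H1-2 had 1961 and H2BC12 had 1276. The genes near 0 were 3 of 6 H1, 7 of 16 H2A, 8 of 17 H2B, 9 of 13 H3 and 7 of 14 H4 genes.

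**Figure D1:**
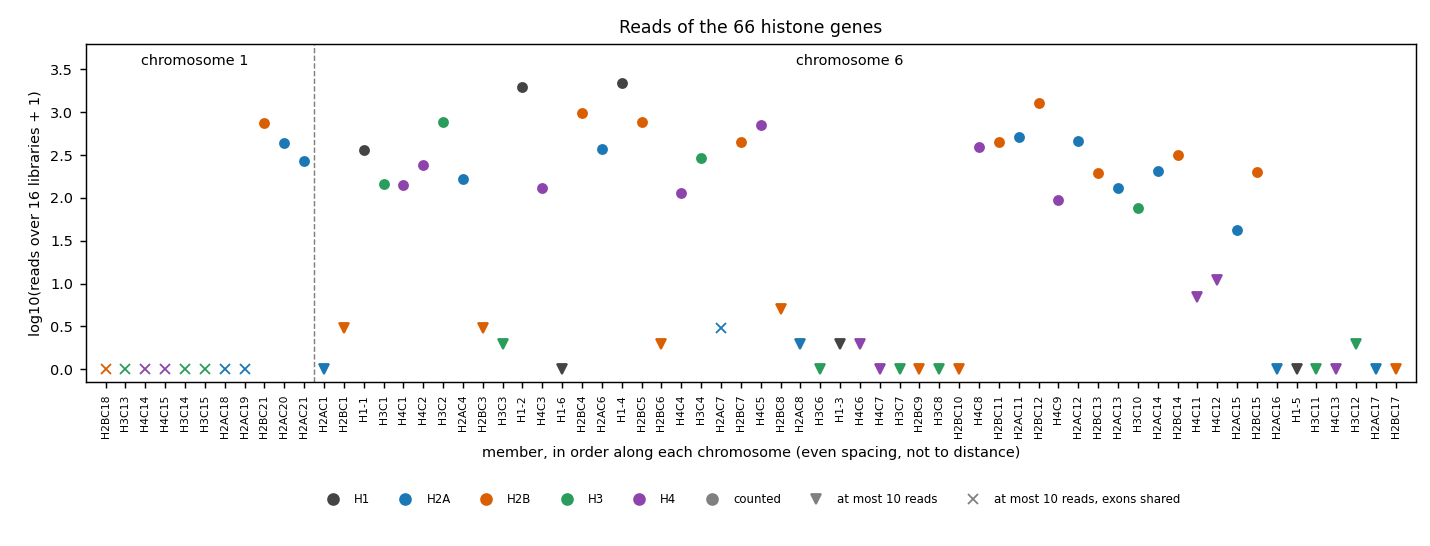
Reads of each of the 66 histone genes summed over 16 libraries, as log10(reads + 1) on the vertical axis, with the genes in their order along chromosomes 1 and 6. Circles are genes with at least 41 reads, triangles and crosses genes with at most 10, crosses marking those whose exons overlap another gene, and colours give the class.

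Genes near 0 lay in stretches along chromosome 6, in hg19 positions of the files. The longest ran over 10 neighbouring histone genes from H2BC8 to H2BC10 (26216429 to 26273640, 57.2 kb), which had 7 reads together and hold the linker gene H1-3. Its neighbours on either side, H4C5 and H4C8, had 707 and 388 reads. Another ran over 7 genes from H2AC16 to H2BC17 (27833107 to 27861669, 28.6 kb), which had 1 read together and hold H1-5, while H2BC15 just before it had 202. The shorter ones were H2AC1 with H2BC1, H2BC3 with H3C3, H4C11 with H4C12, and the lone genes H1-6, H2BC6 and H2AC7. H2AC1, H2BC1 and H1-6 are known as testis histone genes, and H1-3 and H1-5 as somatic linker histone genes.

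Counting rules bear on some of these genes. Exons of 9 members near 0 overlap another gene in the files, and a read over more than 1 gene is counted for none of them by the counter's default: H4C14 with H4C15, H3C14 with H3C15 and H2AC18 with H2AC19 share all of their exons, H3C13 overlaps H3P4, H2BC18 overlaps FCGR1A, and H2AC7 shares 85.3% of its exon with H3C4. The other 25 members near 0 have exons of their own. Of the 24 of these with a GENCODE transcript, 19 shared under 5 percent of their 50-base stretches with transcripts of other genes, H1-3 and H1-5 sharing 0%. The rest shared more: H4C12 (100%), H2AC17 (86.3%), H4C11 (81.2%), H3C12 (40.9%) and H2BC17 (13.6%). To that extent their counts near 0 are uncertain under unique alignment. Among the genes with reads, H3C4 (100%), H2AC14 (83.7%), H2BC12 (74.1%) and H2AC13 (62.3%) shared most of theirs, so their levels may be uncertain under unique alignment. Stretches of genes that overlap at the same place also count as shared here. This bears on H3C4, as 47.2% of its exons overlap H2AC7, and reads over that part go to neither gene by the rule above.

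Per kilobase of exon, the linker genes H1-4 and H1-2 were the most abundant members, at 1430 and 1423 CPM per kb as the mean of all libraries. The highest core histone genes were H2BC4 at 1169, H4C5 at 968, H3C2 at 760.1 and H2BC12 at 742 CPM per kb, and the highest H2A gene was H2AC20 at 563. As the mean share of the summed histone CPM, with no scaling to length, H2B took 34.6%, H1 28.9%, H2A 17.1%, H4 11.9% and H3 7.56%. The share of H2B ran from 30.6% to 40.0% over the libraries and that of H1 from 22.8% to 33.0%. Reads over the shared exons named above were not counted, which touches H2A, H2B, H3 and H4 genes but no H1 gene. Class shares and ranks by level therefore hold for counted reads only.

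H2A and H2B genes often stand head to head with a shared promoter stretch, and 11 such pairs lie within 1000 bases of each other. Both genes had reads in 7 pairs, both were near 0 in 3, and in the pair H2AC7 with H2BC7 only H2BC7 had reads (451 against 2), H2AC7 being the gene that shares its exon with H3C4. The level per kb of the H2B gene over that of its H2A partner ran from 0.319 in H2BC21 with H2AC20 to 6.56 in H2BC15 with H2AC15, and was 3.03 for H2BC4 with H2AC6, 1.44 for H2BC12 with H2AC12 and 0.919 for H2BC11 with H2AC11. H2BC21 has the longest exon of all members (2223 bases), which lowers its level per kb.

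The level of the histone genes was tested only where a gene averaged at least 50 CPM of library totals, which 29 members did, among 4632 genes in all: 3 H1, 8 H2A, 9 H2B, 3 H3 and 6 H4 genes. H4C9, H3C10 and H2AC15 had reads but fell below that level. Tests are limma's on log2(CPM + 10), with Benjamini-Hochberg adjustment over the 4632 genes and a threshold of 0.05, so fold changes of low genes are understated. With 2 libraries a group, an exact permutation test of a single gene could not go below p = 0.333.

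Summed over all members, histone RNA was higher in the CL arm of zdna3 and lower in the CL arm of zdna2 than in the CC arm of the same number. The sum was 12198 and 11606 CPM in zdna3 CL, against 8863 and 10287 CPM in zdna3 CC, a ratio of 1.24. In zdna2 it was 5773 and 5639 CPM in zdna2 CL, against 7237 and 7166 CPM in zdna2 CC, a ratio of 0.792. It was 6662 and 6578 CPM in zdna1 CL, against 6455 and 6273 CPM in zdna1 CC, a ratio of 1.04, and 8725 and 9118 CPM in zdna4 CL, against 7933 and 8452 CPM in zdna4 CC, a ratio of 1.09. The CL libraries lay outside the range of the CC libraries in each number, by the least in zdna1, and a sum over the members was given no test. Of all genes tested, 21.5%, 16.7%, 19.5% and 24.0% in zdna1 to zdna4 had both CL libraries above both CC libraries. Both lay below in 20.3%, 18.2%, 14.4% and 20.3%. Fewer cells in S phase and less histone RNA per cell cannot be told apart in bulk RNA.

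**Figure D2:**
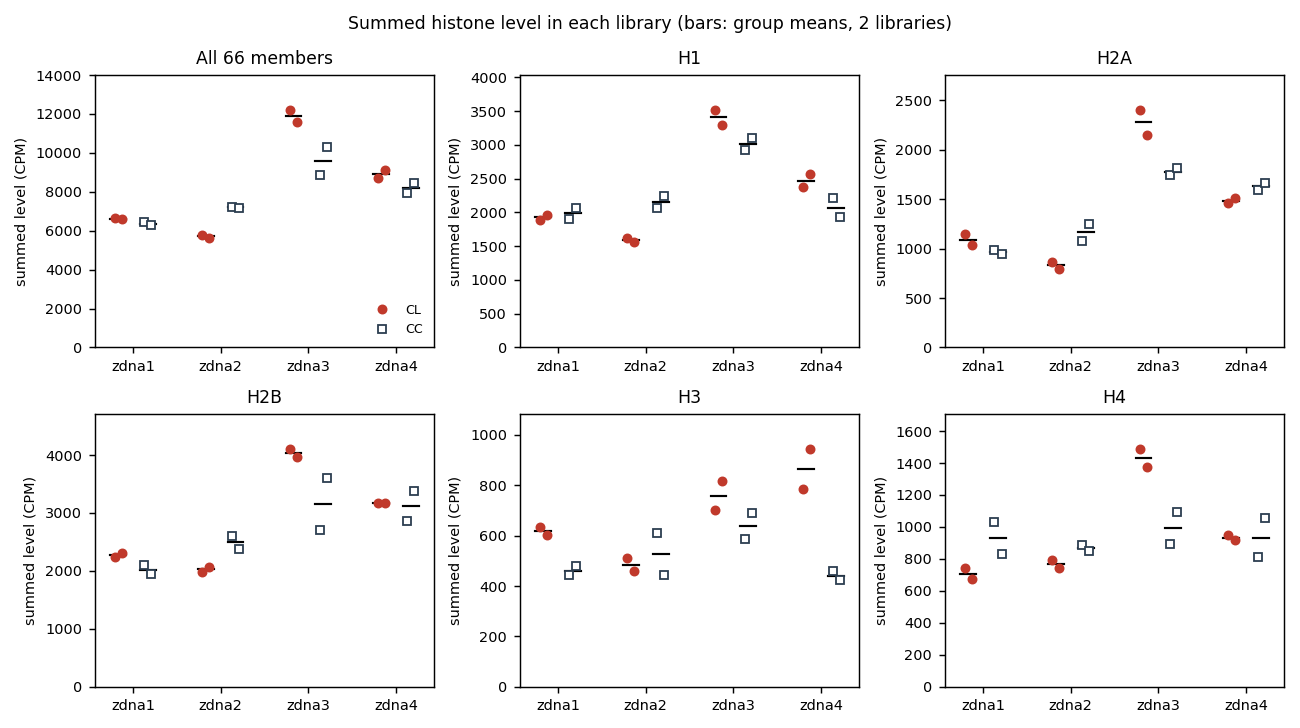
Summed level in CPM of all members and of each class in every library, CL as filled circles left of CC as open squares within each number, with bars at the means of 2 libraries. The zdna3 libraries lie highest for H1 and H2A, and in zdna2 the CL libraries lie below the CC libraries for the whole sum.

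In zdna2, 1 of 29 members passed the test, against 0.173% of all genes, and 25 of 29 had a negative log2 change, against 50.6% of all genes. H1-2, which encodes the linker histone H1.2 (chromosome 6, 26055968 to 26056699, minus strand, hg19, a single exon), fell to 768 and 613 CPM in zdna2 CL, against 1006 and 1001 CPM in zdna2 CC (log2 -0.54, SE 0.124, adjusted p = 0.0351, limma). The linker gene H1-4 (chromosome 6, 26156559 to 26157343, plus strand) had 747 and 859 CPM in zdna2 CL, against 949 and 1108 CPM in zdna2 CC (log2 -0.35, SE 0.123, adjusted p = 0.477, limma). The groups of both genes were apart, and H1-4 did not pass the adjusted threshold. An unadjusted p under 0.05 was met by 10 of 29 members, against 6.58% of all genes, and both CL libraries lay below both CC libraries for 13 of 29, against 18.2%. edgeR's quasi-likelihood test also called H1-2 alone, against 0.194% of all genes, while DESeq2 called 0 members, against 0.0648%. The call of H1-2 was lost in 5 further settings and in 8 of 16 fits without 1 library, with adjusted p from 0.0250 to 0.9995 over all of them by limma, edgeR and DESeq2. Leaving out zdna2 CL replicate 1 gave a log2 of -0.70, leaving out zdna2 CL replicate 2 gave -0.38, and leaving out either replicate of zdna2 CC gave -0.54, each time without the call.

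Core histones showed the same sign in zdna2 without a call. The H2A sum was 866 and 796 CPM in zdna2 CL, against 1079 and 1253 CPM in zdna2 CC, and the H2B sum was 1982 and 2072 CPM in zdna2 CL, against 2604 and 2383 CPM in zdna2 CC. H2AC11 had 139.6 and 137 CPM in zdna2 CL, against 195 and 229 CPM in zdna2 CC (log2 -0.58, SE 0.23, adjusted p = 0.618, limma). H2AC12 had 112 and 126 CPM in zdna2 CL, against 211 and 160.4 CPM in zdna2 CC (log2 -0.59, SE 0.241, adjusted p = 0.618, limma). Both H2A genes had CL libraries below the CC libraries, and the H3 sum overlapped between arms. The median log2 change of the 29 members was -0.32, against -0.0051 for all genes, and ran from -0.44 for H2A genes through -0.35 for H1 and H2B genes each to -0.11 for H3 genes.

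In zdna1, 0 of 29 members passed limma's test, against 0.756% of all genes, 5 had an unadjusted p under 0.05, against 10.6%, and edgeR and DESeq2 called 0, against 0.993% and 0.302% of all genes. By class the sums had different signs: the H3 sum was 635 and 602 CPM in zdna1 CL, against 443 and 479 CPM in zdna1 CC, and the H4 sum was 740.2 and 672 CPM in zdna1 CL, against 1028 and 833 CPM in zdna1 CC. H4C5, the most abundant H4 gene (chromosome 6, 26204873 to 26205249, plus strand), had 244 and 228 CPM in zdna1 CL, against 372 and 359 CPM in zdna1 CC (log2 -0.61, SE 0.19, adjusted p = 0.139, limma). H4C8 (chromosome 6, 26285354 to 26285727, minus strand) had 139.7 and 127 CPM in zdna1 CL, against 257 and 165 CPM in zdna1 CC (log2 -0.60, SE 0.25, adjusted p = 0.343, limma). Both H4 genes had CL libraries below the CC libraries. H3C2, the most abundant H3 gene (chromosome 6, 26031817 to 26032288, minus strand), had 384 and 387 CPM in zdna1 CL, against 301 and 308 CPM in zdna1 CC (log2 0.33, SE 0.189, adjusted p = 0.559, limma), and H3C4 (chromosome 6, 26197012 to 26199521, minus strand) had 112 and 146 CPM in zdna1 CL, against 88.7 and 85.5 CPM in zdna1 CC (log2 0.50, SE 0.302, adjusted p = 0.572, limma). The CL libraries were above the CC libraries for all 3 tested H3 genes and for 12 of 29 members, against 21.5% of all genes, and below them for 3, against 20.3%. The median over the 29 members was 0.19, against -0.0037 for all genes, and 0.11 without zdna1 CC replicate 1.

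In zdna3, 0 of 29 members passed limma's test, against 0.0864% of all genes, 3 had an unadjusted p under 0.05, against 6.56%, and edgeR and DESeq2 called 0, against 0.0864% of all genes each. The 3 were H1-1, H4C4 and H4C5. H1-1, a minor linker histone gene, had 292 and 268 CPM in zdna3 CL, against 107 and 95.3 CPM in zdna3 CC (log2 1.38, SE 0.446, adjusted p = 0.416, limma). These levels stood for 22 and 22 reads in zdna3 CL, against 6 and 4 reads in zdna3 CC. H4C5 had 649.7 and 523 CPM in zdna3 CL, against 357 and 286 CPM in zdna3 CC (log2 0.85, SE 0.308, adjusted p = 0.503, limma). The arms did not overlap for either gene. H2BC11 had 570.1 and 559.6 CPM in zdna3 CL, against 303 and 333 CPM in zdna3 CC (log2 0.81, SE 0.408, adjusted p = 0.739, limma), and H2AC12 had 570.1 and 377 CPM in zdna3 CL, against 303 and 238 CPM in zdna3 CC (log2 0.77, SE 0.384, adjusted p = 0.739, limma). CL libraries lay above CC libraries for 13 of 29 members, against 19.5% of all genes, and below them for 3, against 14.4%. The members' median was 0.34, against 0.063 for all genes, and it was 0.16 without zdna3 CC replicate 1 and 0.51 without zdna3 CC replicate 2. Without zdna3 CC replicate 1 limma called 3 members, H1-1, H4C4 and H4C5, against 6.39% of all genes, with the lone library of that arm assumed to vary like the other groups. H4C4 had 5 and 8 reads in zdna3 CL, against 2 and 0 reads in zdna3 CC, so the library left in that fit held 0 reads of it.

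The constant behind the deposited values is not given in the sources used here, nor whether it rests on spiked-in fly RNA, although the fly build dm6 is named in the submitters' processing notes. On that scale 19 of 29 members were higher in zdna3 CL, where 22.2% of all genes passed in either direction and the median log2 change of all genes was 0.73. The members' median was then 1.11, which is 0.38 above that of all genes. On that scale 0 members passed in zdna1, against 0.864% of all genes, 0 in zdna2, against 0.108%, and 1 in zdna4, against 4.56%. Averaged over the numbers it was 12, against 21.9%, and for unequal changes 13, against 7.23%.

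In zdna4, 0 of 29 members passed limma's test, against 1.17% of all genes, 2 had an unadjusted p under 0.05, against 10.4%, and edgeR and DESeq2 called 0, against 1.17% and 0.518% of all genes. The H3 sum was 784 and 942 CPM in zdna4 CL, against 459 and 423 CPM in zdna4 CC, a ratio of 1.96. The zdna4 CC sum rested on few reads: H3C2 had 9 and 9, H3C4 6 and 5, H3C1 2 and 1 and H3C10 0 and 1. H3C2 had 419 and 531 CPM in zdna4 CL, against 243 and 238 CPM in zdna4 CC (log2 0.95, SE 0.306, adjusted p = 0.112, limma). H3C4 had 195 and 237 CPM in zdna4 CL, against 162 and 132 CPM in zdna4 CC (log2 0.53, SE 0.488, adjusted p = 0.814, limma). CL libraries lay above CC libraries for both genes and for H3C1. H1-1 had 275 and 259 CPM in zdna4 CL, against 108 and 132 CPM in zdna4 CC (log2 1.10, SE 0.445, adjusted p = 0.29, limma). These levels stood for 86 and 58 reads in zdna4 CL, against 4 and 5 reads in zdna4 CC. The H2A sum was 1456 and 1509 CPM in zdna4 CL, against 1592 and 1664 CPM in zdna4 CC. CL libraries lay above CC libraries for 10 of 29 members, against 24.0% of all genes, and below them for 5, against 20.3%. The members' median was 0.14, against 0.079 for all genes, and it was 0.24 without zdna4 CC replicate 1. H3C2 passed the threshold without array weights (adjusted p = 0.0164, limma) and on the deposited scale (adjusted p = 0.0128). Without zdna4 CC replicate 1 limma called 5 members, 4 of them higher (H1-1, H2AC4, H3C1 and H3C2) and H2AC20 lower, against 15.3% of all genes. Without zdna4 CC replicate 2 it called 5, all higher (H1-1, H2BC5, H2BC11, H3C2 and H4C2), against 15.9%. The lone library left in that arm was assumed to vary like the other groups. Without zdna4 CC replicate 1, that library held 1 read of H2AC4 and 1 read of H3C1. Without zdna4 CC replicate 2, it held 1 read of H4C2.

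**Figure D3:**
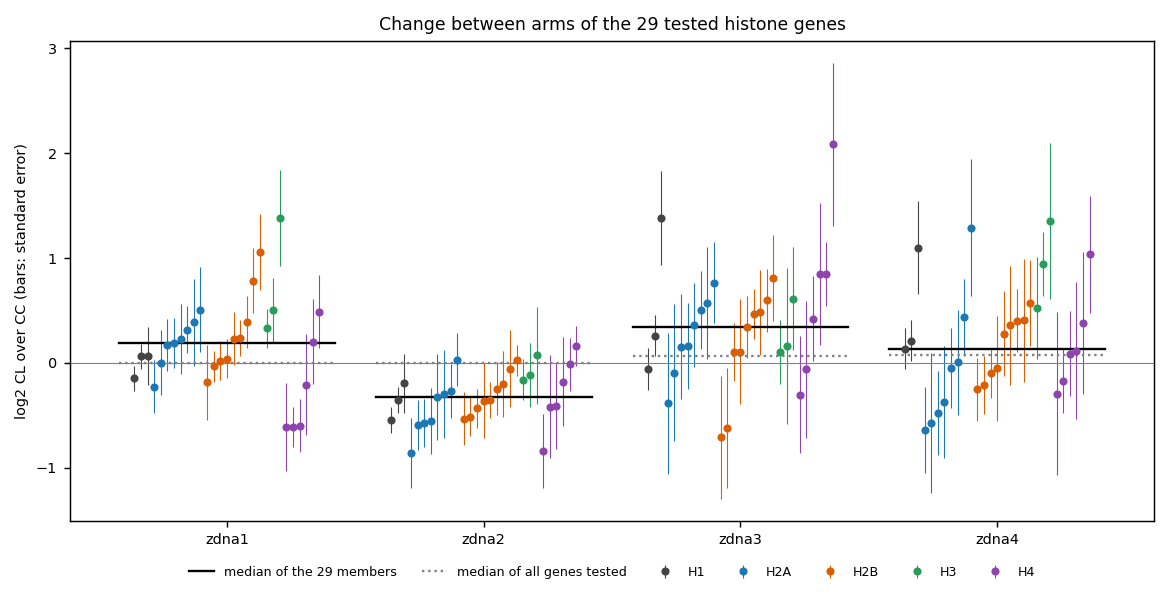
Log2 change of CL over CC with its standard error for each of the 29 tested histone genes, within each number, coloured by class and sorted by size within class. Black lines are the members' medians (0.19, -0.32, 0.34 and 0.14) and dotted lines those of all 4632 tested genes.

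Averaged over the numbers, 0 of 29 members differed between CL and CC by limma, against 0.432% of all genes, 4 had an unadjusted p under 0.05, against 9.28%, and edgeR and DESeq2 called 0, against 0.475% and 0.302% of all genes. The largest averages were those of H3C1 at 0.74 (SE 0.308, adjusted p = 0.420, limma) and H1-1 at 0.59 (SE 0.186, adjusted p = 0.176, limma). H3C1 had few reads, from 1 to 10 in a CC library and from 4 to 39 in a CL library. The test that the 4 changes between arms are equal called 0 of 29 members, against 0.864% of all genes, with 12 under an unadjusted p of 0.05, against 10.4%. By edgeR it called H4C5 alone, against 1.23% of all genes, with adjusted p = 0.0476 there and 0.0853 by limma, and DESeq2 called 0, against 0.583%. H4C5 was lower in the CL arm of zdna1 and higher in that of zdna3, as its values above show. In zdna2, H4C5 had 398 and 326 CPM in zdna2 CL, against 365 and 283 CPM in zdna2 CC, and in zdna4 it had 349 and 326 CPM in zdna4 CL, against 324 and 449 CPM in zdna4 CC.

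Histone genes also differed between the numbers. Averaged over the arms, 10 of 29 members differed among the 4 numbers, against 8.85% of all genes, and 21 of 29 had an unadjusted p under 0.05, against 24.3%. The 10 were the linker genes H1-2 and H1-4, the H2A genes H2AC4, H2AC6, H2AC11 and H2AC12, and the H2B genes H2BC4, H2BC11, H2BC12 and H2BC21. None of the 3 tested H3 and 6 tested H4 genes passed. All 10 had their highest mean in zdna3, as had 171 of the 410 genes of all kinds that passed. For some, zdna4 was close: log2 of zdna4 over zdna3 was -0.022 (SE 0.169) for H2BC12 and -0.039 (SE 0.196) for H2BC4. It was -0.094 (SE 0.213) for H2BC21, -0.14 (SE 0.283) for H2AC6 and -0.25 (SE 0.272) for H2AC12. For H1-2, H1-4, H2AC4, H2AC11 and H2BC11 it ran from -0.45 (SE 0.139, H1-4) to -1.08 (SE 0.461, H2AC4). Of the 29 members 21 had their highest mean in zdna3, against 31.9% of all genes. The median level of the tested members was 204 CPM, against 99.8 CPM for all genes tested. Of genes with at least 200 CPM, 23.4% of 919 passed, and of the members at that level 9 of 15. edgeR called these 10 and H2AC13, H2AC20, H2BC5 and H4C2, against 10.6% of all genes, and DESeq2 called 9 of the 10, without H2BC4, against 4.51%. Values between numbers, mostly zdna3 over zdna1 and over zdna2, are given in log2 with the standard error, as a description.

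Among the linker genes, H1-2 had 1485 and 1472 CPM in zdna3 CL and 1444 and 1643 CPM in zdna3 CC, and 992 and 1063 CPM in zdna4 CL and 998 and 872 CPM in zdna4 CC. It had 845 and 843 CPM in zdna1 CL and 789 and 827 CPM in zdna1 CC, and 768 and 613 CPM in zdna2 CL and 1006 and 1001 CPM in zdna2 CC. All 4 zdna3 libraries lay above the other 12, and the difference was 0.86 ± 0.117 over zdna1 and 0.86 ± 0.117 over zdna2 (adjusted p among numbers = 3.48e-07, limma). H1-4 had 1724 and 1557 CPM in zdna3 CL and 1373 and 1357 CPM in zdna3 CC, and 1104 and 1246 CPM in zdna4 CL and 1106 and 924 CPM in zdna4 CC. It had 866 and 989 CPM in zdna1 CL and 975 and 1078 CPM in zdna1 CC, and 747 and 859 CPM in zdna2 CL and 949 and 1108 CPM in zdna2 CC. Again the zdna3 libraries were above all others, with 0.61 ± 0.115 over zdna1 and 0.72 ± 0.116 over zdna2 (adjusted p = 6.46e-05, limma). Of 4632 genes 2.18% had all zdna3 libraries above the other 12, and of the 29 members 3 had: H1-2, H1-4 and H2BC11. The H1 sum averaged 3208 ± 254 CPM in zdna3, and 2270 ± 270 CPM in zdna4, 1956 ± 82.8 CPM in zdna1 and 1872 ± 329 CPM in zdna2 (SD, 4 libraries each).

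Among the H2A genes, H2AC6 had 398 and 304 CPM in zdna3 CL and 303 and 238 CPM in zdna3 CC, and 234 and 232 CPM in zdna4 CL and 269.8 and 396 CPM in zdna4 CC. It had 126 and 120.4 CPM in zdna1 CL and 97.5 and 119.8 CPM in zdna1 CC, and 139.6 and 126 CPM in zdna2 CL and 146 and 115 CPM in zdna2 CC. H2AC6 (chromosome 6, 26124373 to 26124918, plus strand) was high in all libraries of zdna3 and zdna4 and low in all libraries of zdna1 and zdna2, with 1.33 ± 0.236 for zdna3 over zdna1 and 1.19 ± 0.235 for zdna4 over zdna1 (adjusted p = 5.47e-06, limma). H2AC12 had 570.1 and 377 CPM in zdna3 CL and 303 and 238 CPM in zdna3 CC, and 269 and 313 CPM in zdna4 CL and 378 and 238 CPM in zdna4 CC. It had 196 and 158 CPM in zdna1 CL and 133 and 177 CPM in zdna1 CC, and 112 and 126 CPM in zdna2 CL and 211 and 160.4 CPM in zdna2 CC. H2AC12 (chromosome 6, 27114861 to 27115341, plus strand) showed the same split, with no zdna3 or zdna4 library in the range of zdna1 and zdna2 (adjusted p = 6.46e-05, limma). H2AC11 had 557 and 474 CPM in zdna3 CL and 285 and 452 CPM in zdna3 CC, and 323 and 232 CPM in zdna4 CL and 216 and 185 CPM in zdna4 CC. The gene lies next to H2BC11 (chromosome 6, 27100817 to 27101314, plus strand). In the other numbers H2AC11 had 293 and 234 CPM in zdna1 CL and 231 and 188 CPM in zdna1 CC, and its zdna2 values stand above. The lowest zdna3 library lay within the range of zdna1 and zdna4, and the difference was 0.85 ± 0.216 over zdna1 and 1.28 ± 0.217 over zdna2 (adjusted p = 0.00026, limma). H2AC4 (chromosome 6, 26033320 to 26033796, minus strand) was a low gene with few reads in each library. H2AC4 had 106 and 195 CPM in zdna3 CL and 125 and 191 CPM in zdna3 CC, and 109 and 107 CPM in zdna4 CL and 54 and 26.4 CPM in zdna4 CC. It had 76.8 and 82.4 CPM in zdna1 CL and 79.8 and 34.2 CPM in zdna1 CC, and 55.8 and 28.6 CPM in zdna2 CL and 40.6 and 68.8 CPM in zdna2 CC. Its groups overlapped, with 1.08 ± 0.383 over zdna1 and 1.50 ± 0.385 over zdna2, and its adjusted p was 0.0438 by limma. The H2A sum averaged 2028 ± 306 CPM in zdna3 and 1555 ± 91.4 CPM in zdna4, against 1027 ± 86.2 CPM in zdna1 and 998 ± 208 CPM in zdna2 (SD, 4 libraries each).

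Among the H2B genes, H2BC11 had 570.1 and 559.6 CPM in zdna3 CL and 303 and 333 CPM in zdna3 CC, and 249.7 and 263 CPM in zdna4 CL and 135 and 211 CPM in zdna4 CC. It had 154 and 158 CPM in zdna1 CL and 177 and 96.9 CPM in zdna1 CC, and 119 and 189 CPM in zdna2 CL and 211 and 153 CPM in zdna2 CC. H2BC11 (chromosome 6, 27100095 to 27100575, minus strand) differed by 1.50 ± 0.24 over zdna1 and 1.32 ± 0.241 over zdna2 (adjusted p = 5.12e-05, limma). Its promoter, with the octamer, is printed above beside that of H2BC12. H2BC12 had 862 and 1034 CPM in zdna3 CL and 606 and 762 CPM in zdna3 CC, and 727 and 799 CPM in zdna4 CL and 702 and 951 CPM in zdna4 CC. It had 447 and 488 CPM in zdna1 CL and 469.9 and 485 CPM in zdna1 CC, and 572 and 532 CPM in zdna2 CL and 584 and 504 CPM in zdna2 CC. H2BC12 (chromosome 6, 27106072 to 27114637, minus strand) was higher in every zdna3 and zdna4 library than in any of zdna1 and zdna2, with 0.75 ± 0.14 for zdna3 over zdna1 and 0.73 ± 0.14 for zdna4 over zdna1 (adjusted p = 2.34e-05, limma). H2BC21 had 609.9 and 681 CPM in zdna3 CL and 374 and 476 CPM in zdna3 CC, and 426 and 469 CPM in zdna4 CL and 539.7 and 528 CPM in zdna4 CC. It had 307 and 304 CPM in zdna1 CL and 337 and 262 CPM in zdna1 CC, and 209 and 246 CPM in zdna2 CL and 268 and 359 CPM in zdna2 CC. H2BC21 (chromosome 1, 149856010 to 149858232, minus strand), on chromosome 1, showed the same split between the numbers (adjusted p = 3.06e-05, limma). H2BC4 had 623 and 620.5 CPM in zdna3 CL and 517 and 643 CPM in zdna3 CC, and 551 and 531 CPM in zdna4 CL and 648 and 607 CPM in zdna4 CC. It had 482 and 425 CPM in zdna1 CL and 346 and 422 CPM in zdna1 CC, and 426 and 343 CPM in zdna2 CL and 608 and 397 CPM in zdna2 CC. H2BC4 (chromosome 6, 26123695 to 26124132, minus strand) overlapped between the numbers, with 0.52 ± 0.163 over zdna1 (adjusted p = 0.0295, limma). The H2B sum averaged 3592 ± 625 CPM in zdna3 and 3146 ± 215 CPM in zdna4, against 2150 ± 162 CPM in zdna1 and 2261 ± 286 CPM in zdna2 (SD, 4 libraries each).

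**Figure D4:**
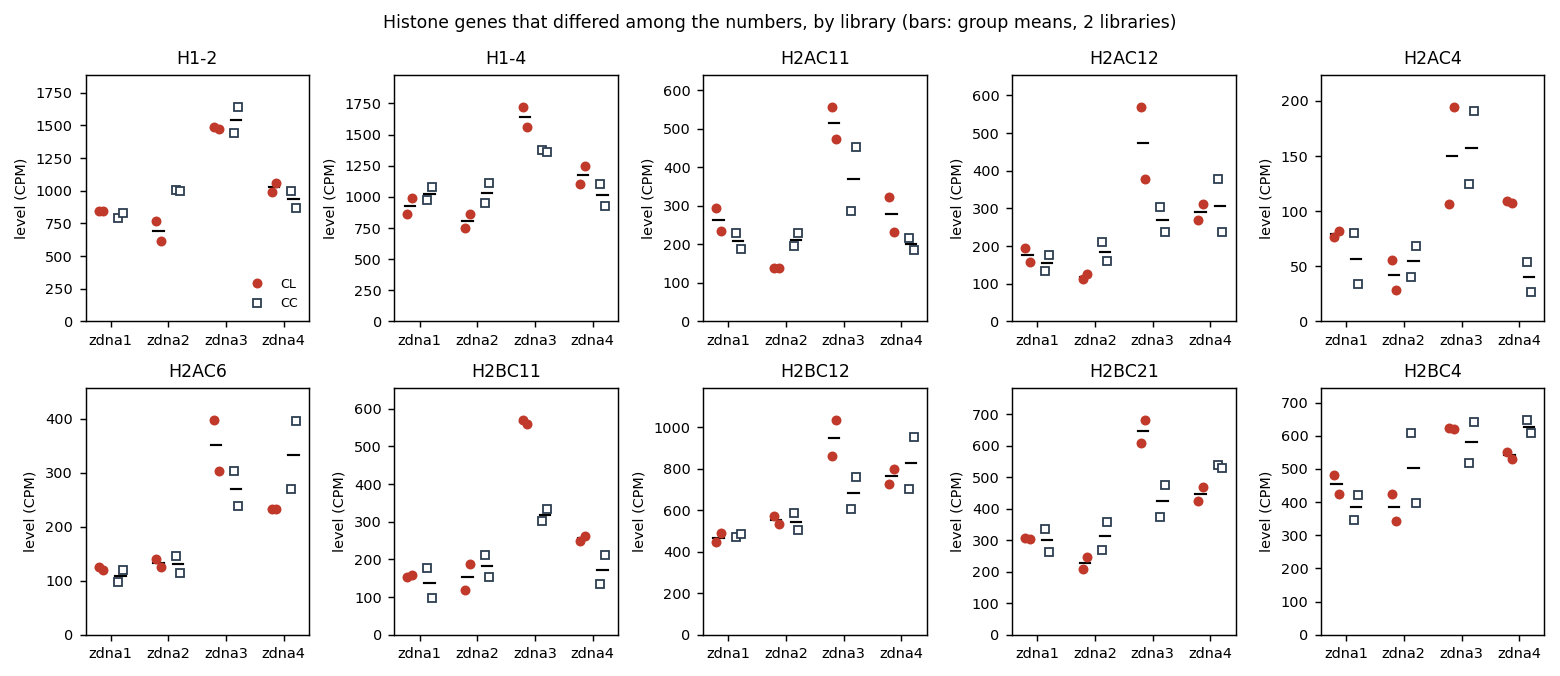
Level in CPM in each of 16 libraries for the 10 histone genes that differed among the numbers, CL as filled circles left of CC as open squares, with bars at the means of 2 libraries. H1-2, H1-4 and H2BC11 have all zdna3 libraries above all others, and H2AC6, H2AC12, H2BC12 and H2BC21 are high in both zdna3 and zdna4.

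H1-1, H3C1, H4C4 and other members outside the naming rule were singled out after their values were seen. The count among the numbers ran from 8 to 18 over fits without 1 library, 18 without zdna3 CC replicate 1 (against 16.8% of all genes) and 18 without zdna4 CC replicate 1 (against 20.4%), and 15 without zdna4 CC replicate 2 (against 21.9%). On the deposited scale it was 25 of 29, where 94.5% of all genes passed. The numbers also differ in depth, zdna3 having 42494 to 83269 reads per library, and in the extra sequence of their reference, and their part in the result cannot be told apart from the number.

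Among the H3 and H4 genes, H3C2 averaged 408 ± 46.5 CPM in zdna3, 358 ± 143 in zdna4, 345 ± 46.6 in zdna1 and 324 ± 25.1 in zdna2 (SD, 4 libraries each). It had 385 and 462 CPM in zdna3 CL, against 428 and 357 CPM in zdna3 CC, and 314 and 298 CPM in zdna2 CL, against 357 and 328 CPM in zdna2 CC. H3C4, whose exon overlaps that of H2AC7, had 172 and 255 CPM in zdna3 CL, against 107 and 167 CPM in zdna3 CC, and 105 and 80.1 CPM in zdna2 CL, against 129.8 and 76.4 CPM in zdna2 CC. Its adjusted p among numbers was 0.073 by limma. H4C8 had 385 and 268 CPM in zdna3 CL, against 196 and 286 CPM in zdna3 CC, then 189 and 205 CPM in zdna4 CL, against 162 and 211 CPM in zdna4 CC, and 154 and 183 CPM in zdna2 CL, against 178 and 160.4 CPM in zdna2 CC (adjusted p among numbers = 0.15, limma). The zdna3 libraries overlapped those of the other numbers for all 3 genes.

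The genes listed as replication-independent histones, most of which are made through the cell cycle and end in poly(A) tails, were examined beside them. Of 13 genes, 7 were tested, and 0 passed in any comparison between arms by limma or edgeR. In zdna1 to zdna4 an unadjusted p under 0.05 was met by 1, 0, 1 and 2 genes, against 10.6%, 6.58%, 6.56% and 10.4% of all genes. Among the numbers 2 of 7 passed by limma, against 8.85% of all genes, and edgeR called 4 of 7, against 10.6%. The 2 were H3-3B, which encodes H3.3 (adjusted p = 0.0124, limma), and H1-10, which encodes H1.10 (adjusted p = 0.0281, limma). H3-3B had 586 reads over all libraries and H3-3A, which encodes the same protein, had 2. The sum of this list averaged 2486 ± 368 CPM in zdna3, 2094 ± 218 CPM in zdna4, 1790 ± 123 CPM in zdna1 and 1819 ± 106 CPM in zdna2 (SD, 4 libraries each), and its zdna3 libraries overlapped the others.

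Genes of S phase were examined in the same way. Of 38 S phase and DNA replication genes, 29 were tested and 1 passed between arms by limma, in zdna4, where 0.907% of all genes passed as higher. This was TYMS, the thymidylate synthase gene, higher in zdna4 CL (log2 2.19, SE 0.572, adjusted p = 0.0393, limma), which edgeR did not call. In zdna1 to zdna4 an unadjusted p under 0.05 was met by 0, 1, 3 and 1 of the 29, against 10.6%, 6.58%, 6.56% and 10.4% of all genes. Among the numbers 3 of 29 passed by limma, against 8.85% of all genes, and 5 by edgeR, against 10.6%. The 3 were POLA1, the catalytic subunit of DNA polymerase alpha (adjusted p = 0.00264), CDT1, a replication licensing factor (adjusted p = 0.0274), and LIG1, a DNA ligase (adjusted p = 0.0393), all by limma. The summed level of the 38 genes averaged 4432 ± 441 CPM in zdna3, 4262 ± 404 CPM in zdna4, 4683 ± 213 CPM in zdna1 and 3911 ± 171 CPM in zdna2 (SD, 4 libraries each). The highest mean of this list was in zdna1, whose libraries overlapped those of zdna3 and zdna4. The histone sum had its highest mean in zdna3, at 10739 ± 1484 CPM, against 6492 ± 169 CPM in zdna1, and its zdna3 libraries overlapped those of zdna4. Between the arms, the S phase sum had a ratio of CL over CC of 1.02 in zdna1, 1.07 in zdna2, 1.05 in zdna3 and 1.12 in zdna4, without overlap in zdna2 and zdna4. The ratios of the histone sum were 1.04, 0.792, 1.24 and 1.09 in the same order.

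**Figure D5:**
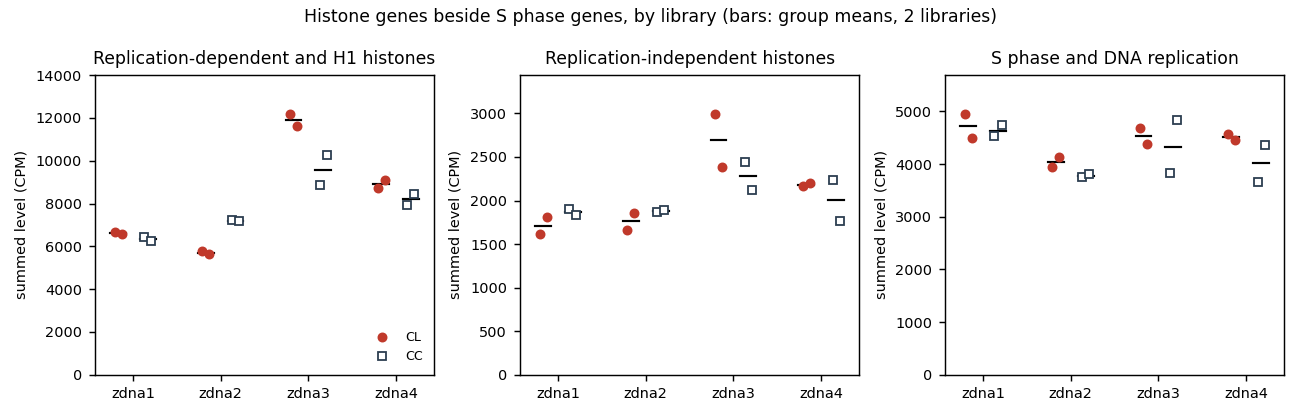
Summed level in CPM in each library of the 66 histone genes, of 13 replication-independent histone genes and of 38 S phase and DNA replication genes, CL as filled circles left of CC as open squares, with bars at the means of 2 libraries. The histone sum has its highest mean in zdna3 and the S phase sum in zdna1, and in both cases the libraries overlap those of another number.

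Of 18 genes that transcribe, cut and degrade histone messages, 9 were tested, and 0 passed between arms by limma or edgeR. In zdna1 to zdna4 an unadjusted p under 0.05 was met by 2, 1, 0 and 1 of them, against 10.6%, 6.58%, 6.56% and 10.4% of all genes. SRRT, a partner of the cap-binding complex (adjusted p = 0.0141, limma), and UPF1, a helicase of RNA decay (adjusted p = 0.0321), differed among the numbers, which is 2 of 9 against 8.85% of all genes, and edgeR called 1 of 9, against 10.6%. SLBP averaged 44.8 CPM and was not tested. It had 24.3 and 79.6 CPM in zdna3 CL, against 0 in both zdna3 CC libraries, where 1 read is worth 18.0 and 23.5 CPM of library totals. In the other 6 groups its means ran from 45.0 to 64.0 CPM. NPAT averaged 49.6 CPM, with group means from 32.7 CPM in zdna3 CC to 75.2 CPM in zdna2 CC, and was not tested. The U7 RNA gene RNU7-1, whose RNA guides the cut after the stem-loop, had 0 reads.

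Of 21 histone chaperone and chromatin assembly genes, 18 were tested, and 0 passed between arms by limma or edgeR. In zdna1 to zdna4 an unadjusted p under 0.05 was met by 3, 2, 0 and 4 of them, against 10.6%, 6.58%, 6.56% and 10.4% of all genes. Among the numbers 1 of 18 passed by limma, against 8.85% of all genes, and edgeR called 2 of 18, against 10.6%. The gene that passed by limma was CABIN1, a subunit of the HIRA complex (adjusted p = 0.0220, limma). SUPT16H, the larger FACT subunit, averaged 349 CPM, with log2 changes of -0.39 (SE 0.194) in zdna1, -0.087 (SE 0.197) in zdna2, 0.058 (SE 0.315) in zdna3 and 0.0087 (SE 0.314) in zdna4. SSRP1, the other FACT subunit, averaged 499 CPM, with changes of -0.13 (SE 0.171), -0.22 (SE 0.174), -0.13 (SE 0.278) and 0.39 (SE 0.277) in the same order. Neither passed in any comparison (adjusted p from 0.118 to 0.999 over the 7 comparisons and both genes, limma).

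Of 10 listed small RNA genes whose RNA has no poly(A) tail, 9 were tested, and in zdna1 5 rose and 0 fell by limma, against 0.497% of all genes higher. In zdna2 3 rose and 0 fell, against 0.0864% higher, in zdna3 0 rose and 2 fell, against 0.0648% lower, and in zdna4 1 rose and 0 fell, against 0.907% higher. RN7SL1, an RNA of the signal recognition particle, changed by 1.13 (SE 0.0659, adjusted p = 1.12e-20, limma) in zdna1, 0.50 (SE 0.0668, adjusted p = 2.75e-06) in zdna2 and -0.52 (SE 0.107, adjusted p = 0.0160) in zdna3, and had -0.17 (SE 0.107, adjusted p = 0.630) in zdna4. The gene that passed in zdna4 was RN7SK, the RNA that holds the elongation factor P-TEFb (log2 0.47, SE 0.0606, adjusted p = 4.89e-07, limma). The summed level of the 10 genes had a ratio of CL over CC of 1.18 in zdna1, 1.11 in zdna2, 0.906 in zdna3 and 1.22 in zdna4, without overlap in any number. It thus had the sign of the histone sum in zdna1 and zdna4 and the opposite sign in zdna2 and zdna3. Whether these RNAs have a part in the histone values was not tested.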

How the data were processed

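Per the file headers, featureCounts 2.0.1 counted read pairs over exons without regard to strand, on hg19 plus 1 extra sequence for each number. The submitters' processing notes name Trim Galore 0.6.6, STAR, bedtools 2.29.2, hg19 and dm6. The deposited values are a signal, gene counts scaled by the authors with 1 constant per library, which is not given in the sources used here. Whole reads were recovered by dividing by that constant (at least 99.9898% of values whole within 0.1 read), and the extra sequence was left out.

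Reads were analysed with R 4.3.3 and limma 3.58.1 (trend, array weights per group) as log2(CPM + 10) with TMM factors, over human genes averaging at least 50 CPM of library totals, as 8 group means, two-sided. edgeR 4.0.16 (quasi-likelihood), DESeq2 1.42.0, pseudocounts of 2 and 50 CPM, filters of 20 CPM and none, other scalings, no weights, the libraries of 1 number only, a replicate block and leaving out each library were alternatives. Tests were tried on simulated data first. Python 3.11.15, pandas 2.3.3, scipy 1.17.1 and matplotlib 3.10.9 gave sums and plots.

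The histone genes and all other lists were chosen with earlier results of these data known. Every library is given for members that passed in any of the 7 comparisons and for the 2 highest members of each class by mean CPM. From the other lists at most 4 genes a comparison are named, called ones first and then by p, and SLBP, NPAT, SUPT16H and SSRP1 always. Nothing states that replicates came from separate cultures, so p-values measure the spread between these libraries, which may be technical. Chi-square tests over genes did not separate replicates in 3 groups, with p = 0.0705 in zdna3 CL, 0.674 in zdna3 CC and 0.383 in zdna2 CC, but their shares of reads on the extra sequence differed, and all were kept as 2 libraries. Limits from a count of 0 cover counting error only. Promoters are from RefSeq on GRCh38.p14, transcripts from GENCODE v29, and gene positions from the files on hg19.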

Additional observations from a re-analysis of the deposited data

Results flagged for a closer look

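In 13 cases the summed histone level moved in opposite directions between CL and CC in a pair of numbers, with no overlap of the libraries in either number, and none of these differences was tested. Every pair of numbers was looked at for each class and for all members, whose sum holds the class sums. A lack of overlap within a number was common among single genes. Both CL libraries lay above both CC libraries in 16.7% (zdna2) to 24.0% (zdna4) of all genes tested, and below them in 14.4% (zdna3) to 20.3% (zdna1 and zdna4). The values are differences of log2 CL over CC.

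For all histone genes the difference was -0.39 for zdna2 minus zdna1, 0.65 for zdna3 minus zdna2 and 0.46 for zdna4 minus zdna2. For H1 genes it was 0.61 for zdna3 minus zdna2 and 0.69 for zdna4 minus zdna2. For H2A genes it was -0.66 for zdna2 minus zdna1, -0.31 for zdna4 minus zdna1, 0.85 for zdna3 minus zdna2 and -0.49 for zdna4 minus zdna3. For H2B genes it was -0.47 for zdna2 minus zdna1 and 0.65 for zdna3 minus zdna2. For H4 genes it was 0.92 for zdna3 minus zdna1 and 0.70 for zdna3 minus zdna2. No pair of numbers did so for H3 genes.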

How the results depend on the processing

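The call of H1-2 in zdna2 was lost, leaving 0 members, under DESeq2, a filter of 20 CPM, no filter, the deposited scale, no array weights and only the libraries of the number, with a log2 of -0.48 to -0.55 in these settings. On the deposited scale the counts were 19 in zdna3, 1 in zdna4, 12 averaged over the numbers, 13 for unequal changes and 25 among the numbers. No array weights gave 1 in zdna4, edgeR gave 1 for unequal changes, and no filter gave 4 among the numbers. The summed log2 change of all members was 0.023 in zdna1 and 0.22 in zdna4 on library totals, and 0.22 in zdna1, -0.30 in zdna2, 1.14 in zdna3 and 0.50 in zdna4 on the deposited scale, where the medians of all genes were 0.15, 0.026, 0.73 and 0.44. On that scale H1-2 turned to 0.75 in zdna3 and to 0.25 averaged over the numbers, and H1-4 to 0.34 averaged. Leaving out each library gave 0 to 1 calls in zdna2, 0 to 3 in zdna3, 0 to 5 in zdna4, 0 to 1 averaged (H1-1, without zdna4 CC replicate 2), 0 to 5 for unequal changes and 8 to 18 among the numbers. For unequal changes there were 2 calls without zdna3 CC replicate 1 (against 4.28% of all genes), 4 without zdna4 CC replicate 1 (8.67%) and 5 without zdna4 CC replicate 2 (9.44%). The causes were not tested. No pairing of the libraries by replicate number was seen (correlations of -0.0195 to 0.0431 over 28 pairs of groups), but at this depth a weak one could be missed. With the replicate block the counts were unchanged, at 1 in zdna2 and 10 among the numbers. Depth limits the low genes: in zdna4 CC 1 read was worth 24.5 and 25.4 CPM of library totals.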
